A study of Homo sapiens with 6 samples.

Results

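The heat shock genes described here are 40 genes of the cytosolic and mitochondrial protein folding system. They comprise heat shock proteins, their co-chaperones and the heat shock factors HSF1 and HSF2, and were taken by gene symbol from the 60708 gene identifiers counted in each library. All 40 were found, each with a single identifier in the gene name table used, although GENCODE gives the name HSPA14 to another identifier as well. The libraries came from U2OS, an established human osteosarcoma line. In 3 of them the cells had been kept in the solvent DMSO, and in the other 3 in 25 µM PDD00017273. This compound inhibits PARG, the glycohydrolase that degrades poly(ADP-ribose). Treatment lasted 4 days, all cells were wild-type U2OS, and total RNA was sequenced. The groups are called DMSO and PARGi.

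When proteins unfold in the cytosol, HSF1 is released from chaperones, forms trimers and binds heat shock elements, which are repeats of the unit GAA in alternating orientation. Its targets include the HSP70, HSP90 and HSP40 genes, small heat shock proteins and the nucleotide exchange factors that release HSP70 from its clients. Mitochondria hold their own HSP70, HSP90 and chaperonin. Tumour lines such as U2OS express many of these genes without heat.

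Between 60286931 and 80605145 reads per library had been assigned to genes, and mitochondrially encoded genes took 3.48% to 3.88% of them. Most markers listed for the line were present. VIM, SPARC, FN1, COL1A1, RUNX2 and CDH2 lay at 69.0 counts-per-million (CPM) or more in both groups, with COL1A2 at 13.0 and 7.41 CPM, but TWIST1 had 6 counts in all 6 libraries together. Of the 8 markers of other lineages or of telomerase, EPCAM was the most abundant at 3.53 CPM with DMSO, and TERT, CD3E, ALB and MYOG had between 2 and 7 counts in all.

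About as many of the tested heat shock genes were higher in PARG-inhibited cells as did not pass, and none passed as lower. Of 39 tested members, 20 rose at an adjusted p under 0.05 (edgeR quasi-likelihood test, Benjamini-Hochberg adjustment over 20409 genes), 0 fell and 19 did not pass. At an unadjusted p under 0.05, 0 were lower, and DESeq2 and limma-voom also called 0 lower. Across all tested genes 13.2% were called higher, 11% lower and 24.3% either way. The members' calls amount to 51.3%. Many heat shock genes are abundant, and calls were more frequent among abundant genes: at 100 CPM or more, 24.1% of genes were called higher, against 15 of the 23 members at that level. The median log2 fold change of the 39 members was 0.088, beside -0.0070 for all tested genes. All members are protein-coding. Of 14504 tested protein-coding genes 17.6% were called higher, and their median was 0.011. HSPA4L, an HSP110 relative, was the member not tested, with 3 counts in the 6 libraries together.

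The rises were small. They ran from 5.64% for CACYBP to 27.7% for HSPB8, with a median log2 fold change of 0.13, and 4 of the 20 reached 0.2. All 20 called members had their 3 PARGi libraries above their 3 DMSO libraries, as did 6 members that did not pass. Of all tested genes, 38% had groups that did not overlap, and 19.8% had PARGi as the higher group. The scaling touched 5 of these calls. Upper-quartile scaling moved the median log2 fold change of all genes by -0.0245 and left 15 members called, without HSF1, STUB1, STIP1, CACYBP and SERPINH1, while the share of all calls that were higher went from 54.5% to 40.5%. In bulk RNA, more transcript in every cell and more cells with the transcript cannot be told apart.

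**Figure D1:**
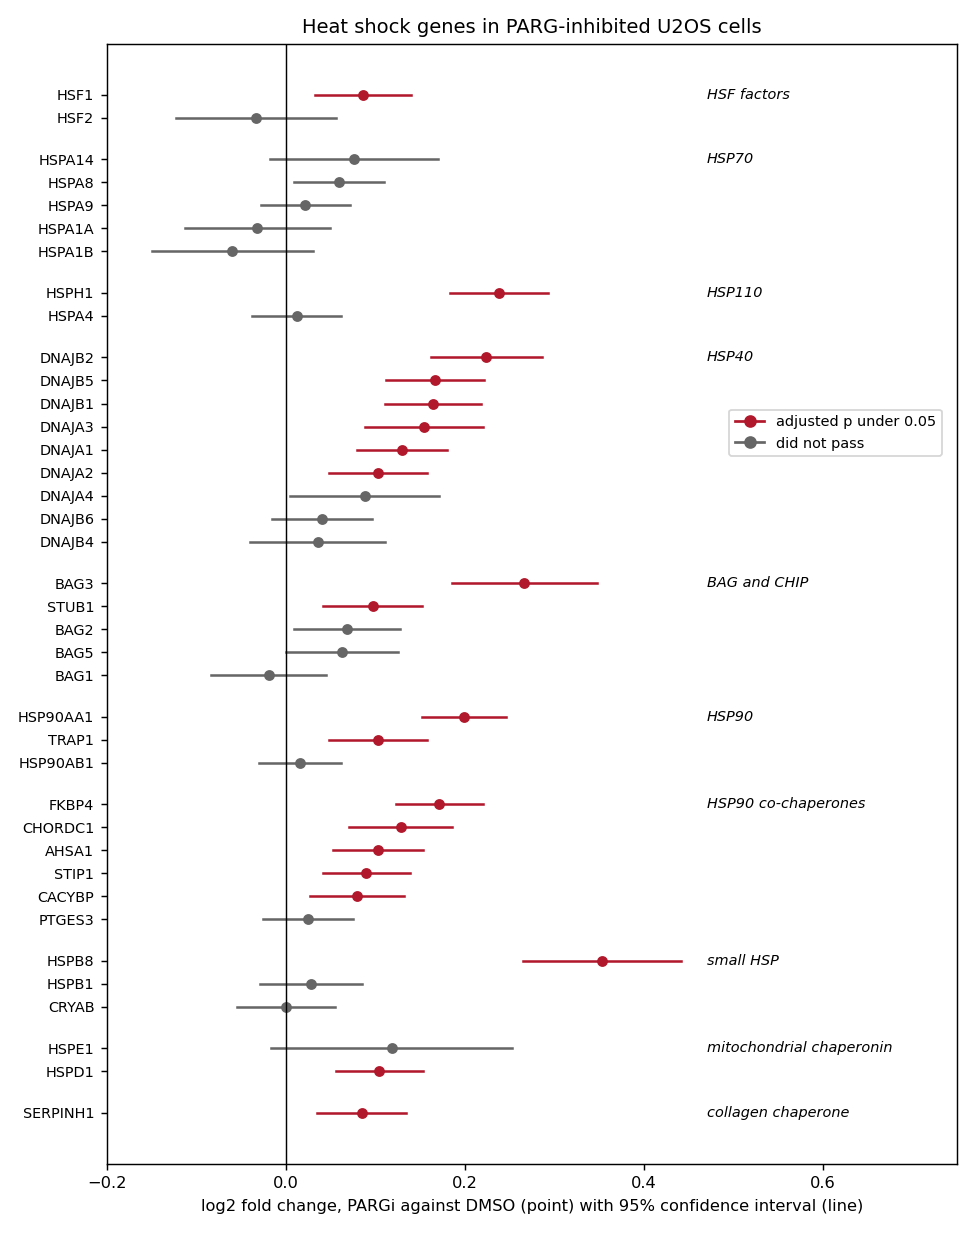
Log2 fold change of PARGi against DMSO (x axis) for 38 members grouped by chaperone class (y axis), with points for the estimate and lines for its 95% confidence interval. HSPA2, at 0.82 with a wide interval, is outside the axis and HSPA4L was not tested. The 20 red members passed and lie between 0.079 and 0.35, while HSPA1A and HSPA1B lie just below 0.

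Promoter windows of 35 members were found in the RefSeq table (GRCh38.p14, 250 bases before to 50 after the gene start). CRYAB, FKBP4, HSF1, HSPA14 and STUB1 had no entry. Both strands were searched for 3 heat shock units in a row, GAA-NN-TTC-NN-GAA, and for 2 units, GAA-NN-TTC or TTC-NN-GAA. The 2-unit matches include those that lie inside a 3-unit match. A 3-unit match was present in 5 of the 35 member promoters (14.3%), against 0.487% of all 27305 promoters in the table. A 2-unit match was present in 11 (31.4%), against 13.7%. Among the 13014 promoters of tested genes the shares were 0.33% for 3 units and 10.3% for 2 units. Of 17 called members with a promoter, 3 held the 3-unit match and 4 a 2-unit match, and of 17 tested members that did not pass, 2 held the 3-unit match and 7 a 2-unit match. For each of these 5 promoters the 30 bases around the 3-unit match nearest the gene start are shown. The HSPA8 window held 2 such matches, and the other is not shown. The 2-unit match of the HSPA1A and HSPA1B pair is shown as well. The letters run 5′ to 3′ on the strand of the gene, with the matched letters in capitals. These are the members whose windows carry the longest matches and the pair most used as markers of the heat shock response.
CHORDC1: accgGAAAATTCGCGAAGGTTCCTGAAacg
SERPINH1: tttccaactTTCCAGAAGTTTCtcgggacg
DNAJA1: cgccgggcgGAACTTTCCAGAAcgctcggt
HSPA8: gcgggccccTTCTGGAAGGTTCtaagatag
DNAJB6: aagagccgaGAACCTTCGCGAAggtggggc
HSPA1A: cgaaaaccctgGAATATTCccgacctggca
HSPA1B: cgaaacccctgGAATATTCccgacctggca

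These lie at chr11:90223084-90223113 (minus strand) for CHORDC1, chr11:75562168-75562197 (plus) for SERPINH1, chr9:33025267-33025296 (plus) for DNAJA1, chr11:123062171-123062200 (minus) for HSPA8, chr7:157336864-157336893 (plus) for DNAJB6, chr6:31815426-31815455 (plus) for HSPA1A and chr6:31827622-31827651 (plus) for HSPA1B. CHORDC1, SERPINH1 and DNAJA1 rose, and HSPA8, DNAJB6, HSPA1A and HSPA1B did not pass. The CHORDC1 match is the longest, a run of 23 bases made of 3 overlapping matches that ends 37 bases before the gene start of the RefSeq table. The gene model of GENCODE 29 starts further upstream, and the match lies inside it. The matches shown for SERPINH1, DNAJA1, HSPA8 and DNAJB6 also lie inside their GENCODE 29 gene models. That of DNAJA1 lies just after the RefSeq gene start as well. A match is only a description of the letters in the window, and windows without one can hold elements that depart from these letters.

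HSF1, the main transcription factor of the response, was slightly higher in PARGi. Its level was 195, 200.1 and 205 CPM with DMSO replicates 1 to 3 and 216, 213 and 208 CPM with PARGi replicates 1 to 3. The groups did not overlap, although the lowest PARGi library lay just above the highest DMSO library. The log2 fold change was 0.086 (SE 0.026, adjusted p = 0.0175), a rise of 6.14% with a 95% interval from 2.26% to 10.2%. The call was lost without DMSO replicate 1, without PARGi replicate 1 or 2 and with upper-quartile scaling, with values down to 0.061. HSF2, a related factor active in development, stood at 20.2, 19.7 and 19.1 CPM with DMSO and 19.8, 18.7 and 19.2 CPM with PARGi. The groups overlapped and HSF2 did not pass (log2 fold change -0.034, SE 0.043, adjusted p = 0.63).

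No HSP70 gene passed with edgeR. At an unadjusted p under 0.05, 2 of the 6 were higher (HSPA8 and HSPA2), DESeq2 called 0 and limma-voom called 1, HSPA8. HSP70 proteins bind exposed hydrophobic stretches of clients, and HSPA1A and HSPA1B encode the forms that heat induces most. HSPA1A was at 52.9, 47.4 and 52.8 CPM in the DMSO replicates and 48.9, 52.3 and 48.7 CPM in the PARGi replicates. HSPA1B was at 23.6, 24.7 and 25.7 CPM with DMSO and 24.0, 24.6 and 22.6 CPM with PARGi. In both genes the groups overlapped. The log2 fold changes were -0.032 (SE 0.039, adjusted p = 0.611) and -0.060 (SE 0.043, adjusted p = 0.351), and the intervals reach no higher than a rise of 3.43% for HSPA1A and 2.07% for HSPA1B. These are near-identical neighbours on chromosome 6, and 71.3% of the 50-base stretches of HSPA1A transcripts also occur in a transcript of another gene, so each value rests on the reads that the authors' counting assigned to one copy. Summed, the pair stood at 75.7 ± 3.28 CPM with DMSO and 73.6 ± 2.91 CPM with PARGi (SD, n = 3 each), and a fit with the pair as 1 row gave a log2 fold change of -0.041 (adjusted p = 0.42).

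HSPA8, the constitutive cytosolic HSP70, was at 1212, 1261 and 1221 CPM with DMSO and 1252, 1307 and 1289 CPM with PARGi. The groups overlapped by a single pair of libraries, since PARGi replicate 1 lay below DMSO replicate 2. Its log2 fold change of 0.059 missed the threshold (SE 0.024, adjusted p = 0.0793) and passed in 3 of 15 alternatives, among them leaving out DMSO replicate 2 (0.077, adjusted p = 0.0182). HSPA9, the mitochondrial HSP70 also called mortalin, was at 271 ± 2.49 and 275 ± 2.93 CPM (log2 fold change 0.022, adjusted p = 0.569). HSPA14, a ribosome-associated relative, had a log2 fold change of 0.076 and an adjusted p of 0.247. On the same strand, 17.4% of its exon bases are shared with another identifier that GENCODE also names HSPA14. That other identifier had 25310 counts over all libraries, beside 1109 to 1452 counts per library for the identifier used. The HSPA14 value therefore covers only the reads assigned to the identifier used. HSPA2, a testis form, had 7 to 31 counts per library. Its 3 PARGi libraries lay above the DMSO libraries, with a log2 fold change of 0.82 and an interval from 0.12 to 1.52 (adjusted p = 0.0843).

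HSPH1 had the smallest adjusted p of all members. It encodes HSP105, an HSP110 protein that acts as a nucleotide exchange factor for HSP70. HSPH1 was at 218, 212 and 223 CPM in the DMSO replicates and 253, 264 and 253 CPM in the PARGi replicates. Every PARGi library lay far above the DMSO range. The log2 fold change was 0.24 (SE 0.027, adjusted p = 3.48e-07), a rise of 17.9% (95% interval 13.5% to 22.5%). Of its class, HSPA4 was more abundant, at 433 ± 5.95 CPM with DMSO and 437 ± 6.94 CPM with PARGi, and did not pass (log2 fold change 0.012, interval -0.038 to 0.061).

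**Figure D2:**
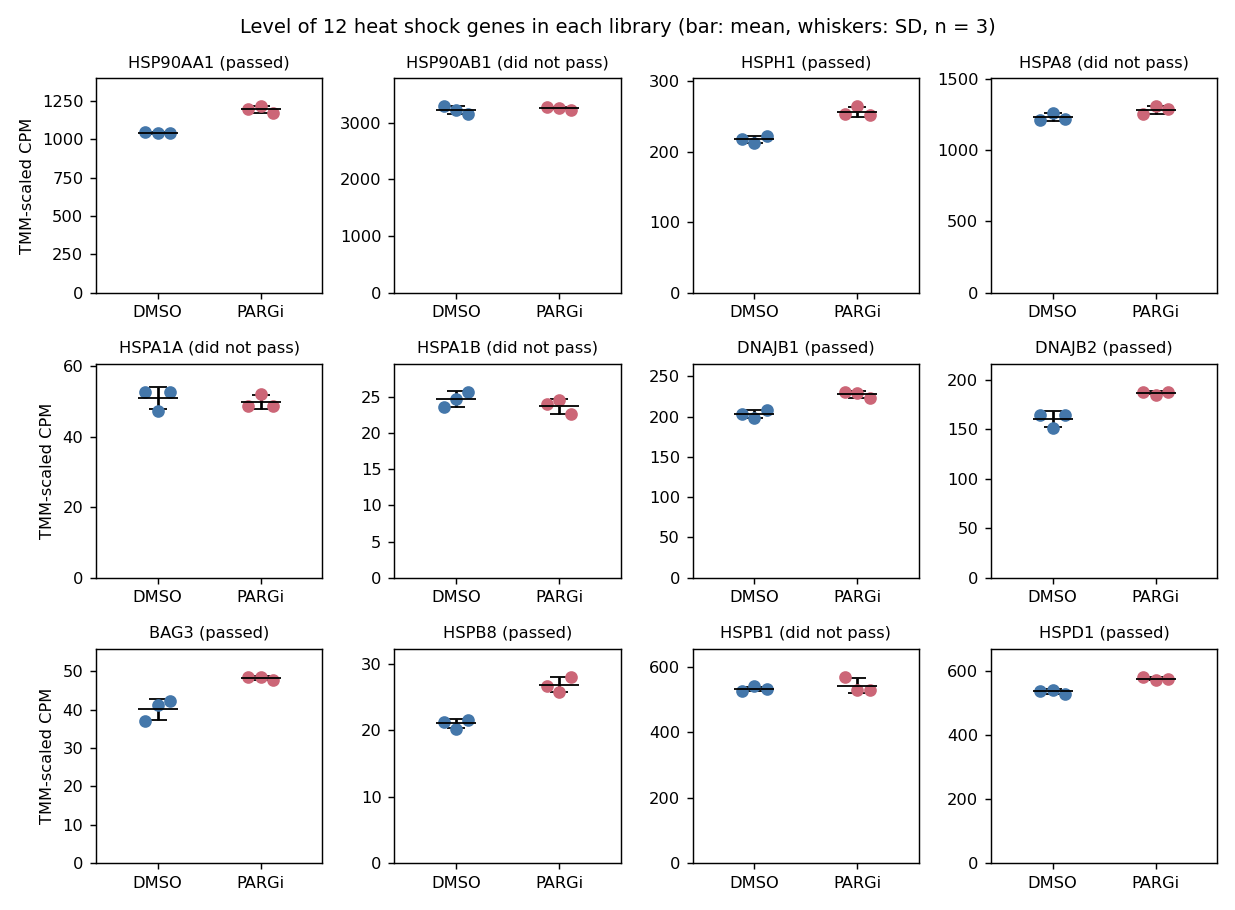
TMM-scaled CPM (y axis, from 0) of 12 members in each DMSO and PARGi library (points), with the group mean (bar) and SD (whiskers, n = 3). HSP90AA1, HSPH1, DNAJB1, DNAJB2, BAG3, HSPB8 and HSPD1 separate the groups, while the points of HSP90AB1, HSPA8, HSPA1A, HSPA1B and HSPB1 overlap.

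Most HSP40 genes rose. HSP40 proteins, also called J-domain proteins, deliver clients to HSP70 and stimulate its ATPase. Of 9 members 6 rose, 3 did not pass and none fell, beside 13.2% higher among all tested genes and 22.1% among genes at 10 CPM or more. DNAJB2, known for neuronal forms that guide ubiquitinated clients, had the largest change, from 165, 151 and 165 CPM with DMSO to 188, 185 and 188 CPM with PARGi. DMSO replicate 2 was the lowest library, and the log2 fold change of 0.22 (SE 0.030, adjusted p = 4.68e-06) ran from 0.18 to 0.24 over the alternatives. DNAJB1, the main heat-inducible HSP40 of the cytosol, was at 203, 199 and 208 CPM with DMSO and 231, 229 and 223 CPM with PARGi. All PARGi libraries were higher, with a log2 fold change of 0.16 (SE 0.026, adjusted p = 4.03e-05).

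The remaining HSP40 rises were of the same order. DNAJB5, a relative of DNAJB1, was at 100.8, 101.1 and 104.5 CPM with DMSO and 114, 114.5 and 116 CPM with PARGi (log2 fold change 0.17, SE 0.026, adjusted p = 4.23e-05). DNAJA1, a farnesylated cytosolic partner of HSP70, was the most abundant gene of the class by CPM and per length. Its level was 523, 504.5 and 521 CPM with DMSO and 557, 575 and 562 CPM with PARGi (0.13, SE 0.024, adjusted p = 3.08e-04). DNAJA2, its close relative, was at 101.5, 98.7 and 98.1 CPM with DMSO and 105, 108 and 107 CPM with PARGi (0.10, SE 0.026, adjusted p = 0.00576). DNAJA3, the mitochondrial J-domain protein, was at 49.99, 50.7 and 53.6 CPM with DMSO and 58.3, 56.9 and 56.7 CPM with PARGi (0.15, SE 0.032, adjusted p = 8.32e-04). In each of these genes the lowest PARGi library lay above the highest DMSO library. DNAJA4, DNAJB4 and DNAJB6, the last an inhibitor of polyglutamine aggregation, had log2 fold changes of 0.088, 0.035 and 0.041 and adjusted p-values from 0.119 to 0.538.

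Among the BAG proteins, which release clients from HSP70, the heat-inducible member rose and the others did not pass. BAG3 couples HSP70 to small heat shock proteins and to selective autophagy. Its level was 36.9, 41.2 and 42.2 CPM in the DMSO replicates and 48.6, 48.6 and 47.7 CPM in the PARGi replicates. DMSO replicate 1 was the lowest of the 6 libraries, and the PARGi libraries were closely grouped above all of DMSO. The log2 fold change was 0.27 (SE 0.039, adjusted p = 1.76e-05), and it stayed at 0.21 without DMSO replicate 1, the lowest value of the 15 alternatives. BAG2 and BAG5 had log2 fold changes of 0.068 and 0.062 (adjusted p = 0.0913 and 0.146) with groups that did not overlap, and BAG1 had -0.020 (adjusted p = 0.708). RAB23 covers 42.7% of the exon bases of BAG2 on the opposite strand, and its log2 fold change was 0.082 (adjusted p = 0.0703). STUB1, which encodes CHIP, the ubiquitin ligase that marks chaperone-bound clients, was at 86.0, 84.9 and 87.4 CPM with DMSO and 93.8, 92.0 and 90.5 CPM with PARGi. The groups did not overlap (0.097, SE 0.027, adjusted p = 0.0101), and the call was lost without PARGi replicate 1 and with upper-quartile scaling. JMJD8 covers 42.4% of the exon bases of STUB1 on the opposite strand and was itself lower (-0.13, adjusted p = 0.00725). The kit marks strand, but the strand setting of the counting is not given in the sources used here, so reads in the stretches that BAG2 and STUB1 share with these genes may not have been told apart.

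HSPB8 is the small heat shock protein that forms a complex with BAG3, and it had the largest rise of all called members. Small heat shock proteins hold unfolding proteins in a soluble state without using ATP. HSPB8 was at 21.3, 20.2 and 21.6 CPM with DMSO and 26.7, 25.8 and 28.1 CPM with PARGi. The groups were far apart, with a log2 fold change of 0.35 (SE 0.043, adjusted p = 1.13e-06), a rise of 27.7% (95% interval 20.2% to 35.8%), and 14.4% of all tested genes had a larger absolute change. HSPB1, known as HSP27, was at 526, 541 and 531 CPM with DMSO and 570, 530 and 529 CPM with PARGi. PARGi replicate 1 was the highest library, and the other two lay within the DMSO range (log2 fold change 0.027, SE 0.028, adjusted p = 0.527). CRYAB, the alpha-B crystallin gene, was at 205 ± 6.83 CPM with DMSO and 205 ± 0.623 CPM with PARGi (adjusted p = 0.999), with an interval from -3.73% to 3.86%.

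Of the cytosolic HSP90 pair, the alpha gene rose and the beta gene did not pass. HSP90 proteins fold kinases, receptors and other signalling proteins. HSP90AA1, the inducible alpha form, was at 1049, 1040 and 1040 CPM in the DMSO replicates and 1201, 1216 and 1173 CPM in the PARGi replicates. The DMSO libraries were nearly equal and all PARGi libraries stood above them, with a log2 fold change of 0.20 (SE 0.023, adjusted p = 5.44e-07). HSP90AB1, the constitutive beta form, was at 3292, 3221 and 3163 CPM with DMSO and 3275, 3270 and 3234 CPM with PARGi. Its groups overlapped and the log2 fold change was 0.015, with an interval from -0.030 to 0.061 (adjusted p = 0.672). Scaling cancels in the ratio of HSP90AA1 to HSP90AB1 counts within a library. That ratio was 0.319, 0.323 and 0.329 in the DMSO replicates and 0.367, 0.372 and 0.363 in the PARGi replicates, higher in each PARGi library than in any DMSO library. No further test of the difference between the genes was made. Both genes have processed pseudogenes, and 11.3% and 16.6% of their 50-base stretches occur in transcripts of other genes. The counts assigned to those pseudogenes made up 0.0707% and 0.0367% of the totals. Reads that match both a gene and a pseudogene may not have been counted for either. These shares therefore do not show how far the shared stretches affected the counts.

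HSP90 acts with co-chaperones that load clients or set the pace of its ATPase cycle, and 5 of the 6 members of this class rose. Of all tested genes 13.2% were higher, and of genes at 50 CPM or more, as all 6 are, 24.8%. FKBP4, the immunophilin FKBP52 of steroid receptor complexes, was at 447, 440.4 and 443 CPM with DMSO and 504, 504 and 491 CPM with PARGi. The groups were well apart (log2 fold change 0.17, SE 0.023, adjusted p = 6.95e-06). CHORDC1, whose promoter window holds the longest heat shock match, was at 85.6, 83.2 and 84.3 CPM with DMSO and 89.5, 94.6 and 92.3 CPM with PARGi (0.13, SE 0.028, adjusted p = 0.00139). AHSA1, the activator of the HSP90 ATPase, was at 144, 143 and 144 CPM with DMSO and 156, 154 and 153 CPM with PARGi (0.10, SE 0.025, adjusted p = 0.00313). The groups were apart in both genes, with the DMSO libraries of AHSA1 nearly equal. STIP1, known as HOP, which links HSP70 to HSP90, was at 340.5, 344 and 348 CPM with DMSO and 367.5, 369.8 and 362 CPM with PARGi. Its groups did not overlap (0.090, SE 0.024, adjusted p = 0.00688), but the call was lost without PARGi replicate 2. CACYBP, which binds the ubiquitin ligase subunit SIAH1 and the co-chaperone SUGT1, was at 129, 126 and 130.1 CPM with DMSO and 138, 134 and 135 CPM with PARGi. Its groups lay close to each other (0.079, SE 0.026, adjusted p = 0.0259), and its call was lost in 6 of 15 alternatives, including the omission of each library other than DMSO replicate 3. PTGES3, the p23 co-chaperone, did not pass (0.024, adjusted p = 0.527).

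**Figure D3:**
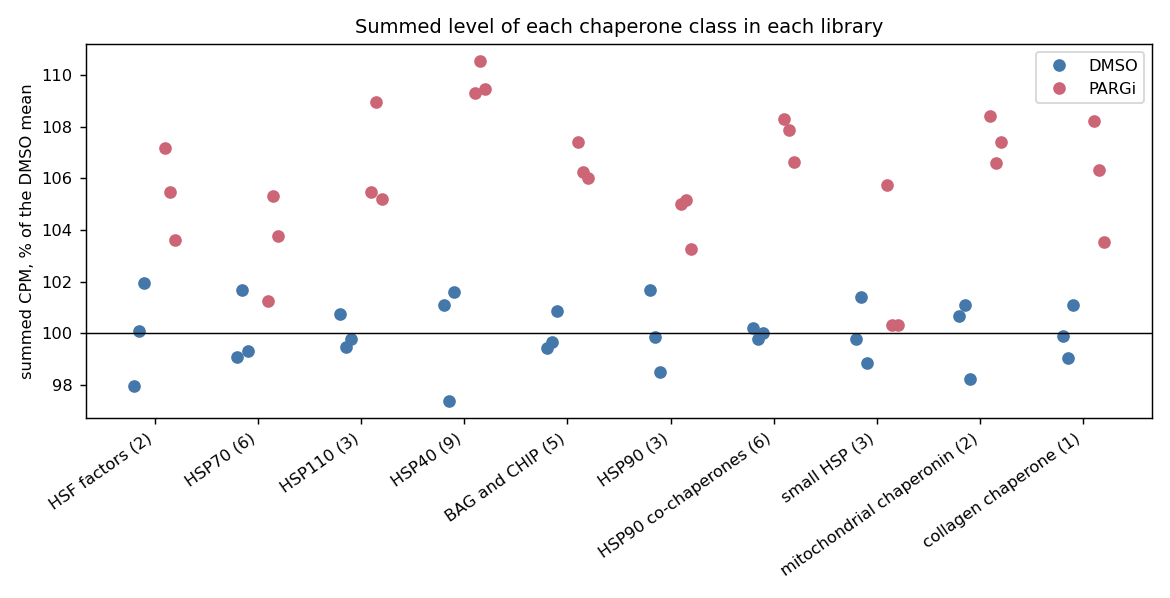
Summed TMM-scaled CPM of each chaperone class in each library, as a percentage of the mean of the 3 DMSO libraries (y axis), with DMSO in blue and PARGi in red and the number of genes of a class in brackets. The axis does not start at 0. The PARGi points lie above the DMSO points in 8 classes and overlap them in HSP70 and small HSP. A sum can rest mainly on a single gene of its class.

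In the mitochondrion, HSPD1 and HSPE1 encode the chaperonin HSP60 and its lid HSP10, and TRAP1 the local HSP90. HSPD1 was at 538, 541 and 527 CPM with DMSO and 581, 570 and 575 CPM with PARGi. All PARGi libraries were higher (log2 fold change 0.10, SE 0.023, adjusted p = 0.00178). HSPE1 was at 12.3, 11.3 and 10.0 CPM with DMSO and 11.3, 12.7 and 12.2 CPM with PARGi, with overlapping groups and a log2 fold change of 0.12 (SE 0.065, adjusted p = 0.206). Single libraries moved this value, to 0.039 without DMSO replicate 3, 0.082 without PARGi replicate 2 and 0.19 without DMSO replicate 1, and it passed in no alternative. HSPE1 has 26 annotated pseudogenes, and its level per exon length was 5.67 RPKM (CPM per kilobase of exon) in DMSO beside 126 RPKM for HSPD1, which shares its promoter region. Of its 50-base stretches, 7.61% occur in transcripts of other genes that do not overlap it. HSPD1 covers 14.2% of the exon bases of HSPE1 on the opposite strand, and HSPE1-MOB4, with 0 counts, 9.7% on the same strand. How the counting treated strand and reads that match several loci is not given in the sources used here, so the level of HSPE1 is uncertain. TRAP1 was at 121, 119 and 119 CPM with DMSO and 132, 129 and 125 CPM with PARGi, with every PARGi library above DMSO (0.10, SE 0.026, adjusted p = 0.00565). DNASE1 covers 29.3% of the exon bases of TRAP1 on the opposite strand and did not pass (0.080, adjusted p = 0.277).

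SERPINH1 encodes HSP47, a heat-inducible chaperone of collagen in the endoplasmic reticulum. It was at 682, 676 and 690 CPM with DMSO and 739, 726 and 707 CPM with PARGi. The groups did not overlap (log2 fold change 0.084, SE 0.024, adjusted p = 0.0114), and the call was lost without PARGi replicate 1 or 2.

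Summed over the 40 genes, heat shock transcripts made up 11920 ± 70.1 CPM with DMSO and 12590 ± 98.6 CPM with PARGi, 5.58% more. Without HSP90AB1 the sum went from 8697 ± 10.2 to 9327 ± 77.0 CPM, 7.25% more. The sums were higher in PARGi by 9.75% for HSP40, 7.58% for the HSP90 co-chaperones and 7.51% for the mitochondrial chaperonin. They were higher by 6.57% for BAG and CHIP, 6.54% for HSP110, 6.03% for SERPINH1, 5.41% for the HSF factors and 4.5% for HSP90. The chaperonin sum rests mainly on a single gene, since HSPD1 made up 535 of 546 CPM with DMSO. In HSP110 the difference, not the sum, rests mainly on a single gene. There HSPH1 went from 218 to 257 CPM and HSPA4 from 433 to 437 CPM. For HSP70 the difference was 3.42%, and for the small heat shock proteins 2.12%, both with overlapping libraries. On the log2 scale these are 0.049 and 0.030, and they shrank to 0.024 and 0.00545 with upper-quartile scaling. The small heat shock value was 0.00426 without PARGi replicate 1. Of 21 tested members listed from textbook knowledge as heat-inducible, 12 rose (57.1%) with a median log2 fold change of 0.090. Of the other 18 members, 8 rose (44.4%) with a median of 0.087. Among all tested genes 13.2% were higher, and 22.1% among genes at 10 CPM or more. The difference between the shares of the member groups was not tested.

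Per exon length, HSP90AB1 had the highest level in DMSO at 1082 RPKM, followed by HSPB1 at 326, HSPA8 at 254, HSP90AA1 at 199 and DNAJA1 at 189 RPKM. The length used merges all annotated exons of a gene and can exceed that of the transcripts present, so this order is approximate. HSPA1A stood at 20.6 RPKM and HSPA1B at 9.79 RPKM. Both levels are uncertain, since 71.3% and 71.4% of their 50-base stretches also occur in transcripts of other genes. In addition, AL671762.1, with 0 counts, covers 36.5% of the exon bases of HSPA1B on the same strand.

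**Figure D4:**
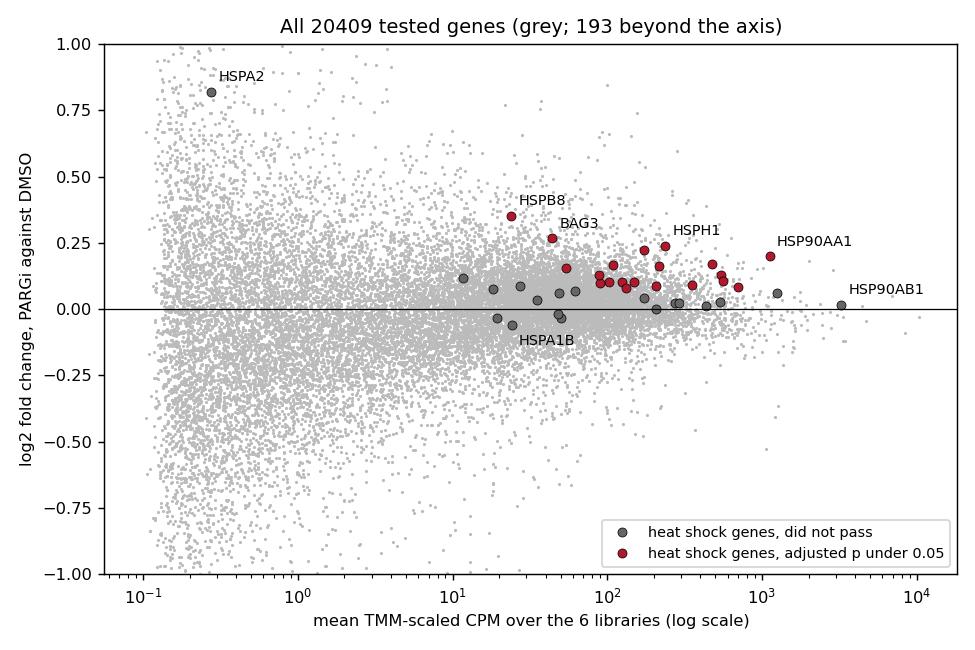
Log2 fold change (y axis, limited to 1 in each direction, with 193 genes beyond it) against mean TMM-scaled CPM over the 6 libraries (x axis, log scale) for all 20409 tested genes (grey), with the heat shock genes on top. The called members (red) lie above 0 at levels from about that of HSPB8 to that of HSP90AA1, within the spread of other genes of like level.

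Other genes of the folding system were compared by lists chosen from textbook knowledge. Their counts stand beside 13.2% higher and 11% lower among all tested genes, and 22.1% higher among genes at 10 CPM or more. Of 7 tested genes among further HSP70 and small heat shock genes, 2 rose (28.6%) and none fell, and the median log2 fold change was -0.034. HSPA12A rose from 32.3 ± 0.204 to 37.9 ± 2.17 CPM (log2 fold change 0.24, adjusted p = 7.42e-05) and HSPB7 from 5.92 ± 0.286 to 6.88 ± 0.651 CPM (0.22, adjusted p = 0.037). HSPA6, a strictly heat-induced HSP70, had 9 to 13 counts in each library and did not pass (log2 fold change -0.13, SE 0.39, adjusted p = 0.859).

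The cytosolic chaperonin CCT, which folds actin and tubulin, showed 1 rise among 8 subunit genes (12.5%). That share is near the 13.2% of all tested genes. All 8 lay above 100 CPM, where 24.1% of genes were higher. The gene was CCT3 (403 ± 3.77 to 426 ± 4.19 CPM, log2 fold change 0.080, adjusted p = 0.0137). Prefoldin, which hands clients to CCT, showed 2 of 6 (33.3%), namely PFDN1 (67.6 ± 1.14 to 78.5 ± 1.80 CPM, 0.22, adjusted p = 3.64e-06) and PFDN4 (0.12, adjusted p = 0.0118). Of 23 further co-chaperones of cytosol and nucleus, 5 rose (21.7%) and 2 fell, near the share of genes at 10 CPM or more. TOMM34, which binds HSP70 and HSP90, rose from 149 ± 1.30 to 168 ± 0.437 CPM (0.18, adjusted p = 8.22e-06), and DNAJC21 rose by 0.12 (adjusted p = 0.00144). The 2 lower genes were HSPBP1 (-0.13, adjusted p = 0.00613), an HSP70 exchange factor, and BAG6 (-0.075, adjusted p = 0.0258), named because their count is small.

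Of 14 genes for mitochondrial import and proteolysis, 3 rose (21.4%) and 1 fell, again near that share. GRPEL1, the exchange factor of the mitochondrial HSP70, rose by 0.32 on the log2 scale (28.7 ± 0.628 to 35.9 ± 0.159 CPM, adjusted p = 2.09e-07), and its paralog GRPEL2 rose by 0.15 (adjusted p = 0.00534), whereas HSPA9 itself did not pass. LONP1, a matrix protease, was the gene that fell (-0.095, adjusted p = 0.0166). In the endoplasmic reticulum 7 of 13 chaperone genes rose (53.8%) and none fell. Among all genes, 22.1% were higher at 10 CPM or more and 24.1% at 100 CPM or more. MANF went from 85.6 ± 5.03 to 103 ± 2.81 CPM (0.27, adjusted p = 2.01e-06) and PDIA4, a disulfide isomerase, from 343 ± 1.88 to 369.9 ± 4.24 CPM (0.11, adjusted p = 0.00137). With upper-quartile scaling, or without PARGi replicate 2, 4 of these 13 genes passed. In the endoplasmic reticulum, CCT, prefoldin and further HSP70 and small heat shock lists, 0 genes were lower with edgeR, also at an unadjusted p under 0.05, and 0 with DESeq2 or limma-voom.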

How the data were processed

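The authors deposited raw whole-number counts per gene, 1 file per library, with no header and no summary lines. Per the submitters' processing notes, cutadapt 1.18, STAR 2.7.3a and SAMtools 1.9 were used with build hg38. The annotation release, the strand setting and the treatment of multimapping reads are not given in the sources used here. Groups and replicate numbers came from the sample titles. Symbols came from a gene name table (60507 of 60708 identifiers matched), and lengths, positions and overlaps from GENCODE 29. Promoter windows and the positions of their matches follow the RefSeq gene starts.

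Low genes were removed with filterByExpr, libraries were scaled by TMM, and counts were fitted in edgeR 4.0.16 under R 4.3.3 with the two-sided quasi-likelihood test on treatment over all 6 libraries. P-values were adjusted over all 20409 tested genes, and 0.05 was the threshold. Standard errors (SE) were derived from the F statistic and the log2 fold change. CPM are TMM-scaled, with the SD over 3 libraries. The labels record no molecular identifiers. They call the replicates biological without naming separate cultures, so p-values measure the spread between these samples, which may be technical.

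Values by library, SE and adjusted p are given for every called member and, whether called or not, for HSF1, HSF2, HSPA1A, HSPA1B, HSPA8, DNAJB1, HSPH1, HSP90AA1, HSPB1, HSPD1, HSPE1 and BAG3, and up to 2 called genes with the smallest p were named per wider list. Members and lists were chosen with earlier results of these data known. Alternatives were DESeq2 1.42.0, limma-voom (limma 3.58.1), 2 other scalings, 2 other filters, robust dispersions, a replicate block, HSPA1A and HSPA1B as 1 row, and each library left out. The fit was tested on simulated counts, with changes set in genes of all levels. It recovered 30.6% of 1.1-fold, 58.3% of 1.2-fold, 71.4% of 1.5-fold and 90% of 2-fold changes, and called 0.0352% of unchanged genes. Small changes were thus often missed, and a gene that did not pass is not thereby shown to be unchanged. Figures used matplotlib 3.10.9.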

Additional observations from a re-analysis of the deposited data

How the results depend on the processing

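The count of higher members stayed between 15 and 21 in all 15 alternatives, and of lower members at 0. With 1 library left out it was 16 to 21. Of the 20 called members, 15 passed in every alternative, and CACYBP, HSF1, SERPINH1, STIP1 and STUB1 lost their call in at least 1. Of 19 members not called, HSPA8 and DNAJA4 passed in at least 1. With upper-quartile scaling the median log2 fold change of all genes was -0.032, and the summed log2 difference was 0.067 for HSP110 and for BAG and CHIP, 0.039 for HSP90, 0.081 for HSP90 co-chaperones, 0.080 for the mitochondrial chaperonin, 0.024 for HSP70, 0.00545 for small heat shock proteins and 0.054 for all members. For further HSP70 and small heat shock genes, 1 gene was higher with upper-quartile scaling and with DESeq2, and 1 to 2 with a library left out. For CCT, 0 genes were higher with upper-quartile scaling, 2 with DESeq2, limma-voom or robust dispersions, and 0 to 2 with a library left out. With upper-quartile scaling 4 further co-chaperones were lower and 4 endoplasmic reticulum genes higher. With a library left out, 1 to 3 prefoldin genes were higher, 1 to 2 further co-chaperones lower, 0 to 1 mitochondrial import and proteolysis genes lower, and 4 to 6 endoplasmic reticulum genes higher. The cause was not tested.

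DMSO and PARGi libraries carry the same replicate numbers, but same-numbered libraries did not deviate together (correlations -0.0059, 0.016 and -0.0078 across genes). With the replicate number as a block, 20 members were higher, 0 were lower and 4553 genes were called against 4951. Depth limits HSPA2, HSPA4L and HSPA6, with at most 31 counts per library.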
